A study of Mus musculus with 24 samples.

Results

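The Notch pathway was described here through 10 genes, namely the 4 receptors Notch1, Notch2, Notch3 and Notch4, the 4 ligands Jag1, Jag2, Dll1 and Dll4, and the 2 targets Hes1 and Hey1. Each symbol matched 1 Ensembl gene of the GENCODE M1 annotation, and these were 10 of the 37991 genes of the count table. All 10 were among the 14918 genes that passed the filter on low counts. RNA-seq covered weeks 6, 8, 10 and 12 with 3 mice of either genotype (PyMT or FVB) per week, hence 24 samples in 8 groups. PyMT mice were F1 females of transgenic FVB/N males and homozygous FVB females, so that both genotypes had an FVB background. They were heterozygous for the polyoma middle T antigen, which the MMTV promoter drives in the mammary epithelium. Every PyMT mouse thus carried 1 oncogene, expressed in 1 tissue compartment. The controls were homozygous FVB females of the same ages without the transgene. The study takes week 6 as hyperplasia, week 8 as adenoma/MIN, week 10 as early carcinoma and week 12 as late carcinoma, and compares mammary tumors with normal mammary glands.

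Notch signaling passes between touching cells. A ligand of the Jagged or Delta-like family on one cell binds a Notch receptor on its neighbor, the receptor is cut by an ADAM protease and then by gamma-secretase, and its intracellular domain enters the nucleus and joins the DNA-binding protein RBPJ and a Mastermind coactivator. Genes of the Hes and Hey families, which encode transcriptional repressors, are the best known direct targets. In the mammary gland the pathway is known for its part in luminal cell fate, and Notch1 and Notch4 are known as sites where MMTV integrates in mouse mammary tumors. In blood vessels Dll4, Jag1, Notch1 and Notch4 act in endothelium and Notch3 in the mural cells around it. The tissue studied held epithelium as well as stroma, and in bulk RNA fewer cells of a type and less RNA per cell cannot be told apart.

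RefSeq start sites on GRCm38.p6 were found for 8 of the 10 members (all but Hes1 and Hey1), and the 250 bases before the start were searched on both strands for 3 sequences. These were GTGGGAA, which RBPJ binds, the E-box CACGTG bound by HEY proteins, and the N-box CACNAG bound by HES proteins. The stretches of 4 genes are shown because their genes carry the results that follow. Jag1 is the ligand with the largest difference, Notch1 the receptor that was higher, Dll4 another ligand that was lower, and Lfng an enzyme that modifies the receptors and was lower at every week. Capitals mark the matches, and the sequences run 5′ to 3′ on the strand of the gene.
Jag1, chr2:137116521-137116770, minus strand: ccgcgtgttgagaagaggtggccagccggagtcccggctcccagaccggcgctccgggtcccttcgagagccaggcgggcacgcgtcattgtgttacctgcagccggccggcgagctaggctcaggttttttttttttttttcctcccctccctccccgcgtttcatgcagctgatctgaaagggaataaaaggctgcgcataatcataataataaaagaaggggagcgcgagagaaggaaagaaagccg
Notch1, chr2:26503823-26504072, minus strand: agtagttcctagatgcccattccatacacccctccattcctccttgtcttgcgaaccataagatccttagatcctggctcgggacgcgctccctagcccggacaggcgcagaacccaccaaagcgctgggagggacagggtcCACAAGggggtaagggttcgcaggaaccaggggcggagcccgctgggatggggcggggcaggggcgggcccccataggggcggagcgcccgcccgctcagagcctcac
Dll4, chr2:119325534-119325783, plus strand: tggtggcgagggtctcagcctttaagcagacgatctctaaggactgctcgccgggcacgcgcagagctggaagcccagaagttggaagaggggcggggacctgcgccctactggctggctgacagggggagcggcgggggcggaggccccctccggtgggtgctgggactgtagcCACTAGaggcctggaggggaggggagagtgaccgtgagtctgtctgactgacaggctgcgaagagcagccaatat
Lfng, chr5:140607091-140607340, plus strand: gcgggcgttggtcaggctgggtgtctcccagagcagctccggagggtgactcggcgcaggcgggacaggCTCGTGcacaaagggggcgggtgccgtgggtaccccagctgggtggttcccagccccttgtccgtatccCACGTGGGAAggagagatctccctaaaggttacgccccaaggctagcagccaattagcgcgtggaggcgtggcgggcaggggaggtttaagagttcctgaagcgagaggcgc
Jag1 had no match in this window. Notch1 had 1 N-box, 108 to 103 bases before its start, and Dll4 had 1 N-box, 75 to 70 bases before its start. In Lfng the RBPJ sequence (109 to 103 bases before the start) overlapped an E-box (112 to 107 bases before the start), and an N-box lay 181 to 176 bases before the start. Beside the members, Lfng, Mfng, Nrarp and Heyl were looked up, and Lfng was picked from these. Nrarp, which is not shown, had an E-box and N-boxes but no RBPJ sequence. Over the 8 members 0 had the RBPJ sequence, 0 had the E-box and 4 had an N-box (Notch1, Notch2, Notch3 and Dll4). Of 32851 RefSeq promoters searched in the same way, 5.42% had the RBPJ sequence, 6.02% the E-box and 36.7% the N-box. A match describes these letters and shows no binding.

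Total counts ran from 6969375 to 13516601 per sample. In 13 of the 24 libraries (6 PyMT and 7 FVB) low counts came in packets. The number of genes at each count had a peak at 8 to 25 reads, and the count at this peak is the packet size. Counts between 0 and a packet also occurred. All 3 PyMT samples of week 6 and all 3 FVB samples of week 10 were of this kind. Of 3799 genes of middling level, up to 4.396% were at 0 in a library with packets (replicate 3 of FVB week 10) and up to 0.211% in a library without. Skeletal muscle genes also varied widely, with a sum of 8 markers between 165 and 1439350 normalized counts in FVB and between 63.9 and 90095 in PyMT. Levels are given as normalized counts, which are the deposited counts divided by DESeq2's size factors. Adjusted p-values come from the quasi-likelihood test of edgeR and were adjusted over all tested genes by the method of Benjamini and Hochberg.

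The tumors had more Hey1 and Notch1 RNA and less Notch2, Notch3, Notch4, Jag1, Jag2, Dll4 and Hes1 RNA than the normal glands, whereas Dll1 did not pass the test over the 4 weeks. With all 4 weeks in one fit, 2 of the 10 members were higher and 7 were lower at an adjusted p under 0.05. Over all tested genes 23.6% were higher and 27.5% were lower under the same rule. Of the 9 members called, 5 changed more than 2-fold, with Hey1 up and Notch4, Jag1, Jag2 and Dll4 down, while 8.51% of all tested genes were higher and 17.2% lower by this rule. The median log2 fold change of the 10 members was -0.80, beside -0.03 for all tested genes. When libraries were scaled by their size alone, the median of all genes moved to 0.26, the calls over all genes turned from 3525 higher and 4095 lower to 5437 higher and 2860 lower, and Notch2 and Hes1 were no longer called, so that 2 members were higher and 5 lower.

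**Figure D1:**
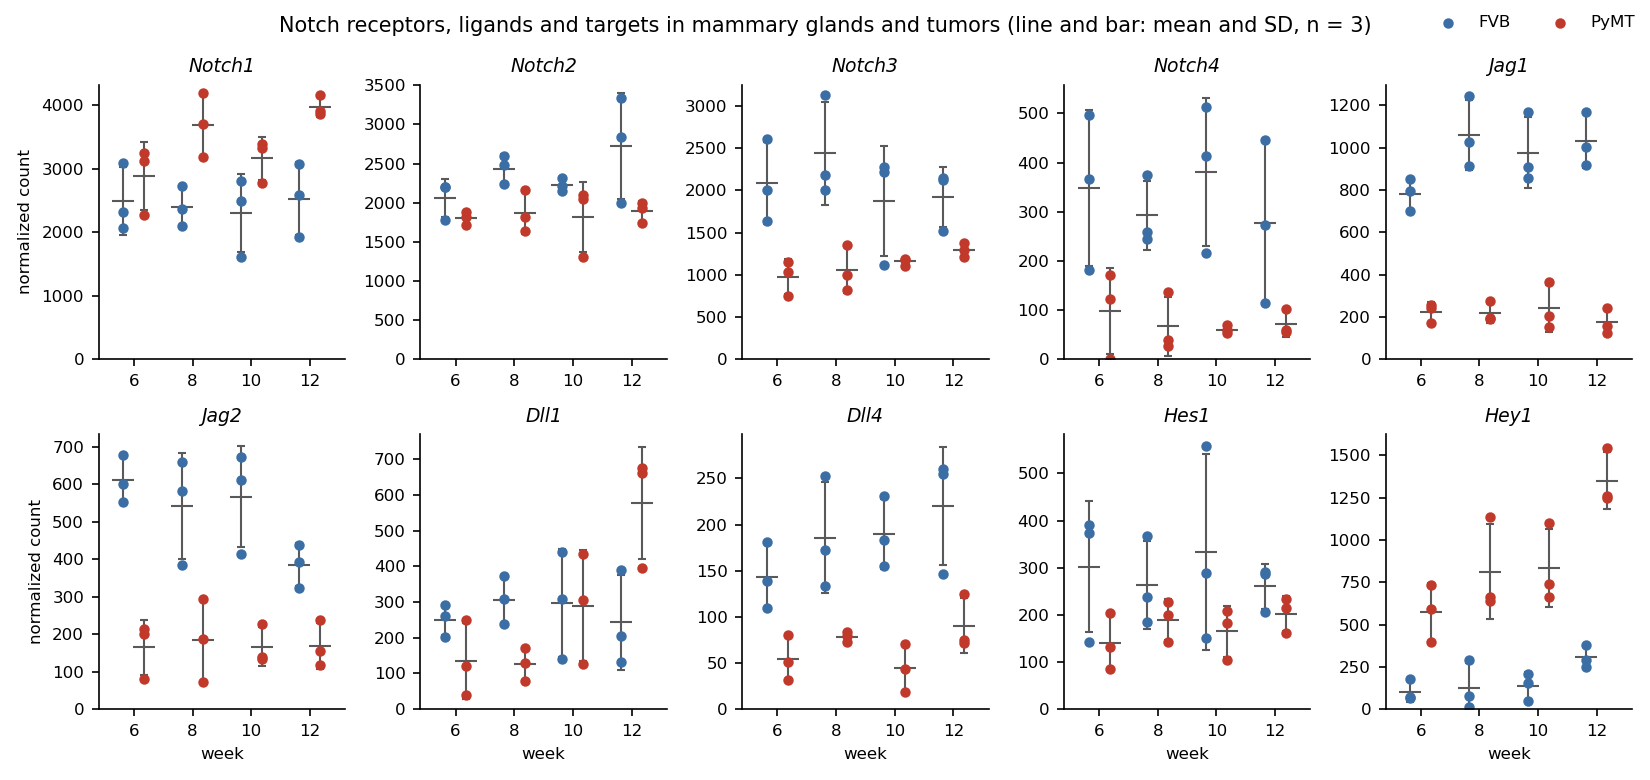
Normalized counts (y axis, linear from 0) of the 10 members at each week (x axis) in FVB (blue) and PyMT (red), with 1 point per mouse and the mean and SD of each group of 3. Hey1 points of PyMT lie above all FVB points, Jag1 and Jag2 points lie below them, and Dll1 points lie below FVB at week 8 and above FVB at week 12.

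Within weeks, differentially expressed genes (DEGs) were those that passed the test (adjusted p under 0.05) and differed more than 2-fold. At week 6 there were 4 DEGs among the members (Hey1 up, Notch3, Jag1 and Jag2 down), while 10.0% of all tested genes were DEGs. At week 8 there were 2 (Notch3 and Jag1, both down), with 9.95% of all genes. At week 10 there were 4 (Hey1 up, Notch4, Jag1 and Jag2 down), with 13.9% of all genes. At week 12 there were 6 (Hey1 and Dll1 up, Notch4, Jag1, Jag2 and Dll4 down), with 20.7% of all genes, and Notch1 was higher by less than 2-fold. Jag1 was the only member that was a DEG at every week. The number at week 8 was 7 with DESeq2's Wald test, and the number at week 12 was 3 in a fit of all 24 samples and 2 without replicate 3 of FVB week 12. The shares of all tested genes given above do not apply to these numbers, which come from other fits.

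**Figure D2:**
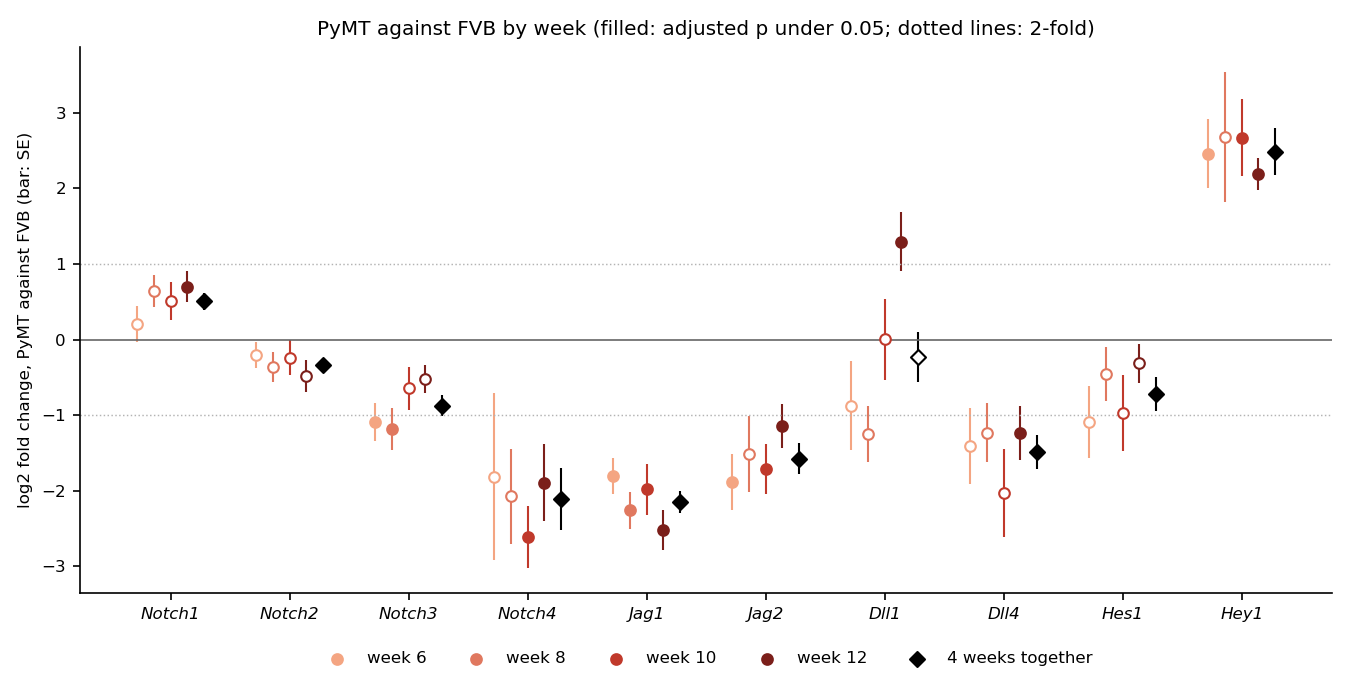
Log2 fold change of PyMT against FVB (y axis, bars are SE) for each member at each week (circles, n = 3 against 3) and with the 4 weeks together (diamonds, n = 12 against 12), filled where the adjusted p was under 0.05. Jag1 is filled in all 5 positions, Hey1 lies above 2-fold throughout, and Dll1 moves from -0.88 at week 6 to 1.30 at week 12.

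Notch1 was the one receptor with more RNA in tumors. It lies at chr2:26313423-26372183 on the minus strand of mm9 and is protein coding. In PyMT its normalized counts were 2270.3, 3120.2 and 3256 at week 6, 3183, 3707 and 4192 at week 8, 2773, 3323 and 3394 at week 10, and 3859, 3905 and 4158 at week 12. In FVB they were 2066, 2320.3 and 3095 at week 6, 2094, 2361 and 2729 at week 8, 1615, 2487 and 2808 at week 10, and 1926, 2585 and 3069 at week 12. The groups overlapped at weeks 6 and 10 and lay apart at weeks 8 and 12. Of the 14918 tested genes, 5990 lay apart in either direction at week 8 and 6960 at week 12. Over the 4 weeks the log2 fold change of Notch1 was 0.50 ± 0.11 (SE, adjusted p = 0.00059). By week it was 0.21, 0.64, 0.51 and 0.70, and it passed the test at week 12 (edgeR adjusted p = 0.034). That call was lost in 6 of 15 alternatives, among them those without PyMT replicate 1, 2 or 3 or FVB replicate 1 or 2 (0.54 to 0.71), whereas the call over the 4 weeks was kept in 34 of 34.

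Notch2 and Notch3 were both lower in tumors, Notch3 by more. Notch2 had a lowest, median and highest normalized count of 1302, 1848 and 2156 in PyMT and of 1777, 2226 and 3343 in FVB. Its log2 fold change over the 4 weeks was -0.33 ± 0.09 (adjusted p = 0.0051), and with scaling by library size alone it was -0.04 (edgeR adjusted p = 0.78). Notch3, the receptor known from mural cells, had 753, 1167 and 1374 in PyMT and 1117, 2133 and 3137 in FVB. The genotypes overlapped through a single FVB library, since replicate 3 of FVB week 10, the library with the most genes at 0, had 1117 and every other FVB sample had at least 1515. For Notch3 the log2 fold change was -0.87 ± 0.14 over the 4 weeks (adjusted p = 1.07e-05). It was largest at week 6 (-1.09, edgeR adjusted p = 0.026) and week 8 (-1.18, edgeR adjusted p = 0.032), and was -0.65 at week 10 and -0.53 at week 12, which did not pass. The call of week 6 was lost without PyMT replicate 1, 2 or 3 or FVB replicate 3 of that week (-0.85 to -1.19), and that of week 8 without PyMT replicate 1 or 2 or FVB replicate 2 or 3 (-0.93 to -1.31).

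Notch4 had the lowest level of the receptors and the largest difference. In PyMT its normalized counts were 0, 123 and 171 at week 6, 26.7, 39.4 and 136 at week 8, 52.4, 58.7 and 69.1 at week 10, and 54.5, 58.8 and 103 at week 12. In FVB they were 181, 366 and 497 at week 6, 245, 259 and 374 at week 8, 216, 414 and 513 at week 10, and 115, 273 and 446 at week 12. Every PyMT sample lay below every FVB sample of its own week. The log2 fold change over the 4 weeks was -2.11 ± 0.41 (adjusted p = 0.00014), which is 4.31-fold lower. Weekly values ran from -1.81 to -2.61, and those of week 10 (edgeR adjusted p = 0.0047) and week 12 (edgeR adjusted p = 0.026) passed the test. The latter call was lost in 4 of 15 alternatives, which were the fit of all 24 samples (-1.92, edgeR adjusted p = 0.12) and those without PyMT replicate 1 or 2 or FVB replicate 3 (-1.37 to -1.77). The 0 at week 6 came from replicate 2, whose packets were 25 reads, and replicate 2 of PyMT week 8 held 42 reads in packets of 23. With the libraries without packets alone the log2 fold change was -2.12 (edgeR adjusted p = 0.0062). These were 6 of PyMT and 5 of FVB, but with none of PyMT at week 6 and none of FVB at week 10, so that every such value compares the genotypes at weeks 8 and 12 only, with 4 PyMT and 3 FVB libraries. The strand setting of the counting is not given in the sources used here, and GENCODE M1 has lincRNA or pseudogene models on the other strand within Notch1, Notch3, Notch4, Dll1 and Dll4, whose reads may then be included.

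On a scale that allows genes to be compared, the normalized count per kb of exon, the order of the receptors differed between the genotypes. In FVB the mean level was highest for Notch3 (259 ± 64.1, SD, n = 12), followed by Notch2 (225 ± 39.2), Notch1 (171 ± 32.1) and Notch4 (40.3 ± 15.9). In PyMT it was highest for Notch1 (241 ± 40.1), followed by Notch2 (175 ± 22.3), Notch3 (139.6 ± 24.1) and Notch4 (9.22 ± 6.11). The first 3 of these receptors overlapped with their neighbors in the order in both genotypes. As a share of the 4 receptors summed, Notch1 made up 24.6% ± 2.1 in FVB (range 21.6% to 27.9%) and 42.5% ± 2.85 in PyMT (range 36.9% to 46.5%). The 12 PyMT samples all lay above the 12 FVB samples in this share. Notch3 made up 36.9% in FVB and 24.7% in PyMT, Notch4 5.69% and 1.59%, and Notch2 32.8% and 31.3%. With the length of the longest transcript in place of all exons, which differ most for Notch1 (9488 and 14232 bases), the share of Notch1 was 32.4% in FVB and 52.4% in PyMT. The FVB order then changed, with Notch1 (256 ± 48.1) above Notch2 (225 ± 39.2) and close to Notch3 (259 ± 64.1), whereas Notch1 remained the highest receptor in PyMT (361 ± 60.1). These shares describe the levels above and were not tested apart from them.

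**Figure D3:**
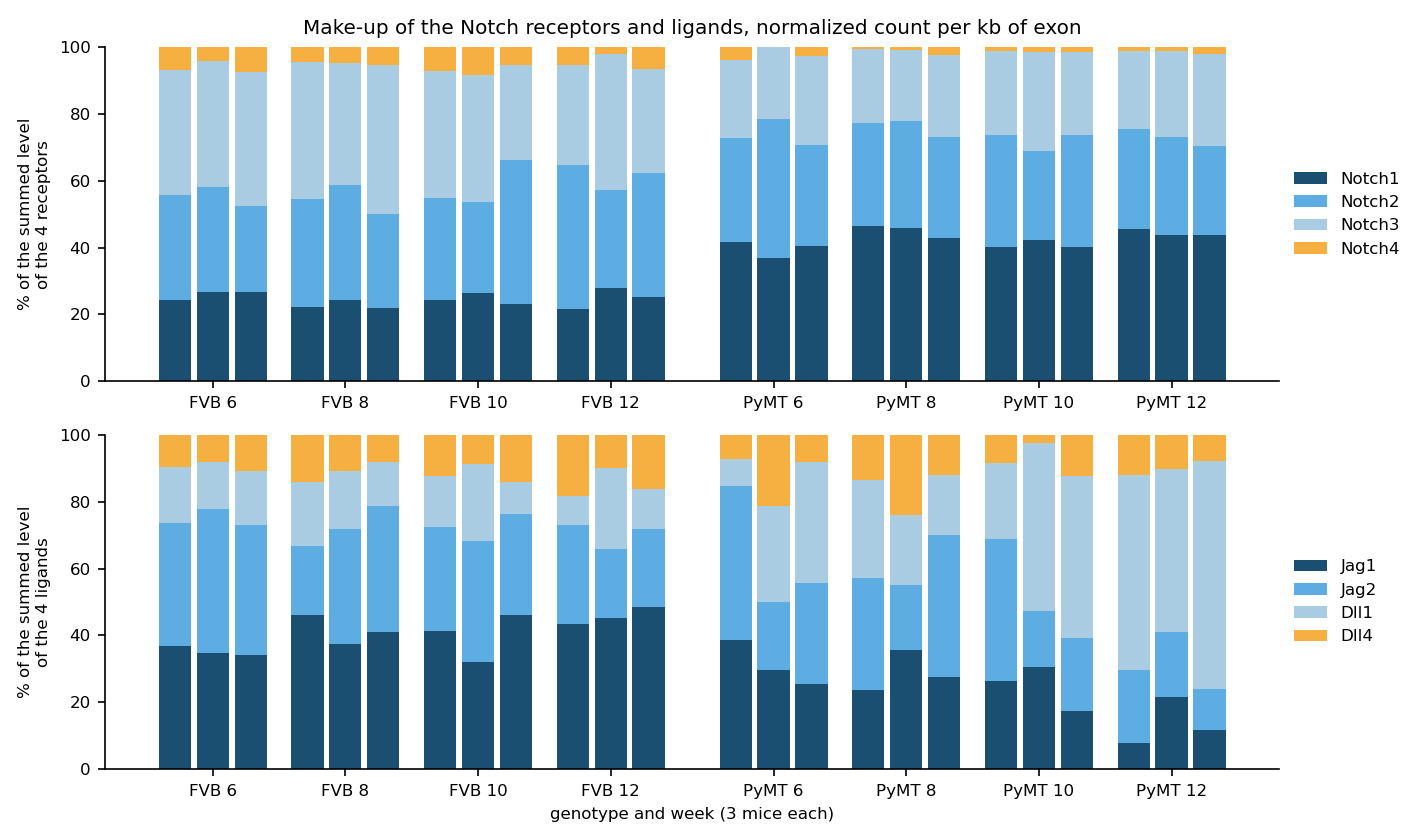
Share (%, y axis) of each gene in the summed normalized count per kb of exon of the 4 receptors (top) and the 4 ligands (bottom), with 1 bar per mouse and groups by genotype and week (x axis). The Notch1 share is 21.6% to 27.9% in FVB and 36.9% to 46.5% in PyMT, and the Dll1 share of week 12 is 48.8% to 68.1% in PyMT.

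Both Jagged ligands were lower in tumors over the 4 weeks, Jag1 at every week and Jag2 at 3 of 4. In PyMT the normalized counts of Jag1 were 170.0, 243 and 258 at week 6, 188, 193 and 273 at week 8, 153, 203 and 367 at week 10, and 123, 159 and 240.4 at week 12. In FVB they were 701, 794 and 851 at week 6, 913, 1026 and 1243 at week 8, 856, 908 and 1169 at week 10, and 919, 1006 and 1170.0 at week 12. The highest tumor sample (367) lay below the lowest normal gland (701). Over the 4 weeks Jag1 had a log2 fold change of -2.15 ± 0.15 (adjusted p = 3.30e-11), which is 4.44-fold lower. Weekly values were -1.81, -2.26, -1.98 and -2.52, with an adjusted p between 0.00048 and 0.0064 in edgeR's test. All 5 calls were kept in every alternative run for Jag1.

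Jag2, the second Jagged ligand, had a lowest, median and highest normalized count of 71.3, 171 and 295 in PyMT and of 324, 567 and 678 in FVB. The 12 PyMT samples again lay below all 12 FVB samples. Jag1, Jag2 and Hey1 were the 3 members whose genotypes did not overlap at all, and 11.9% of all tested genes were of this kind. For Jag2 the log2 fold change was -1.58 ± 0.21 over the 4 weeks (adjusted p = 8.66e-07), and -1.88, -1.52, -1.71 and -1.14 by week. Week 8 did not pass (edgeR adjusted p = 0.092), and the call of week 12 (edgeR adjusted p = 0.021) was lost in 6 of 15 alternatives, among them those without PyMT replicate 2 or 3 or FVB replicate 1 or 3 (-0.94 to -1.13). The call of week 6 was lost without FVB replicate 2 (-1.89, edgeR adjusted p = 0.052).

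Dll4, the ligand known from sprouting vessels, was lower in tumors as well. Its lowest, median and highest normalized counts were 18.9, 72.3 and 124 in PyMT and 109.5, 176 and 260.3 in FVB. PyMT lay below FVB within each week, although the genotypes overlapped across weeks. The log2 fold change was -1.49 ± 0.22 over the 4 weeks (adjusted p = 4.94e-06). By week it was -1.41, -1.23, -2.03 and -1.24, and it passed the test at week 12 (edgeR adjusted p = 0.034), a call that was lost with scaling by library size alone and without PyMT replicate 2 or 3 or FVB replicate 1 or 3 (-1.10 to -1.12). Hey1, Notch4, Jag1, Jag2 and Dll4 were the 5 members whose groups of 3 lay apart in one direction at each of the 4 weeks, as did 16.9% of all tested genes.

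Dll1 lay lower in tumors at week 8 and higher at week 12, although the change of its difference between these weeks did not pass the test (2.52 ± 0.78 on the log2 scale, edgeR adjusted p = 0.9997). In PyMT its normalized counts were 38.3, 119.9 and 249 at week 6, 79.7, 129 and 172 at week 8, 127, 306 and 436 at week 10, and 396, 662 and 675 at week 12. In FVB they were 203, 259.6 and 291 at week 6, 238, 308 and 372 at week 8, 139, 309.8 and 441 at week 10, and 133, 204 and 391 at week 12. All PyMT samples of week 8 lay below, and all those of week 12 above, the FVB samples of the same age, the latter by a narrow margin (396 against 391). Such a separation was common, since 5990 of the 14918 tested genes lay apart in either direction at week 8 and 6960 at week 12. The log2 fold change of Dll1 was -0.88 ± 0.59 at week 6 (edgeR adjusted p = 0.39) and -1.25 ± 0.37 at week 8 (edgeR adjusted p = 0.072). It was 0.0024 ± 0.53 in week 10 and 1.30 ± 0.39 in week 12 (edgeR adjusted p = 0.041). The call of week 12 was lost in 6 of 15 alternatives, among them those without PyMT replicate 1 or 3 or FVB replicate 1 or 3 (lowest value 1.01). Over the 4 weeks it was -0.23 ± 0.34 (adjusted p = 0.596).

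Some Dll1 counts of the earlier tumors came from few packets. Replicates 1 and 2 of PyMT week 6 held 43 and 115 reads in packets of 14 and 25, while replicate 3 held 439 reads in packets of 13. Replicate 2 of PyMT week 8 held 85 reads in packets of 23. Replicates 1 and 3 of PyMT week 8, which had no packets, held 180 and 220 reads, and replicates 2 and 3 of PyMT week 12, also without packets, held 371 and 730. Replicate 1 of PyMT week 12 held 644 reads in packets of 12. The part of the packets in the Dll1 values was not tested. Among ligands Dll1 made up 24.3% ± 14.7 of the summed level per kb in the week 6 tumors (SD, n = 3), 22.7% ± 5.89 in those of week 8, 40.5% ± 15.4 in those of week 10 and 58.4% ± 9.65 in those of week 12, while in FVB it was between 14.9% and 16.6% on average. The ligand sum itself was 408 ± 47.8 normalized counts per kb in FVB and 163 ± 54.5 in PyMT (SD, n = 12), and the receptor sum was 695 ± 117 and 565 ± 75.7.

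Hey1 and Hes1, the target genes, differed in opposite directions. In PyMT the normalized counts of Hey1 were 396, 594 and 733 at week 6, 637, 665 and 1136 at week 8, 664, 740.2 and 1099 at week 10, and 1247, 1258 and 1546 at week 12. In FVB they were 64.0, 68.7 and 178 at week 6, 12.8, 80.2 and 289 at week 8, 48.1, 155 and 208 at week 10, and 248, 288 and 379 at week 12. The lowest tumor sample (396) lay above the highest normal gland (379). The log2 fold change was 2.49 ± 0.31 over the 4 weeks (adjusted p = 3.38e-07), which is 5.61-fold higher, and this call was kept in 34 of 34 alternatives. Weekly values ran from 2.20 to 2.68, and week 8 did not pass (edgeR adjusted p = 0.088), where FVB replicate 2 held 11 reads in packets of 8. Without FVB replicate 1 of week 8 that difference was 4.14 (edgeR adjusted p = 0.015).

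Hes1 had a lowest, median and highest normalized count of 84.5, 191 and 233 in PyMT and of 141, 288 and 559 in FVB, and the groups overlapped at each of the 4 weeks. Its log2 fold change was -0.72 ± 0.22 over the 4 weeks (adjusted p = 0.0091), and the differences within weeks, from -0.31 to -1.10, did not pass the test at any week. With the libraries without packets alone it was -0.10 (edgeR adjusted p = 0.82), and with scaling by library size alone it was -0.48 (edgeR adjusted p = 0.12). Per kb of exon Hey1 was the member with the highest mean level in PyMT (405 ± 159, SD, n = 12) and stood at 76.4 ± 52.8 in FVB. Hes1 stood at 85.6 ± 24.1 in PyMT and 142 ± 58.8 in FVB.

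Whether the tumors changed between week 6 and week 12 was tested in the fit of all 24 samples. In PyMT 0 members passed edgeR's test, as did 0% of all tested genes, and at an unadjusted p under 0.05 there were 1 member (Dll1) and 1004 genes. In FVB 0 members and 0% of all tested genes passed, with 1 member (Hey1) and 625 genes at an unadjusted p under 0.05. The change of Dll1 in PyMT was 2.08 ± 0.57 on the log2 scale (edgeR adjusted p = 0.26), and DESeq2's Wald test called it (adjusted p = 0.030). The change of Hey1 was 1.25 ± 0.62 in PyMT (edgeR adjusted p = 0.78) and 1.53 ± 0.64 in FVB (edgeR adjusted p = 0.9997), and limma with sample quality weights called the former (adjusted p = 0.013). In FVB both tools called 0 members. How many of all tested genes these tools called is not given here, so their calls cannot be set beside a share of all genes.

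The difference between the genotypes was also compared between weeks. Between weeks 12 and 6, 12 and 8, 10 and 8, and over any of the weeks, 0 members passed in edgeR, DESeq2 and limma. At an unadjusted p under 0.05 Dll1 was the 1 member in the first pair, in the second pair and over any week, and 0 members reached it between weeks 10 and 8. The numbers of all tested genes under these rules are not given here, so these counts cannot be set beside a share of all genes. The difference of Dll1 changed by 2.16 ± 0.78 from week 6 to week 12 (edgeR adjusted p = 0.95). For the other 9 members that change lay between -0.72 and 0.77, with an SE between 0.28 and 1.18.

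The rest of the pathway was read from a list of 54 genes, of which 47 were tested (Dll3, Dlk1, Dlk2, Dner, Hes5, Hes7 and Dtx1 had too few counts). Over the 4 weeks 11 were higher (23.4%, with 23.6% of all tested genes), 17 were lower (36.2%, with 27.5%) and 19 did not pass. The median log2 fold change was -0.20, beside -0.03 for all tested genes. More than 2-fold, 10 were lower and 0 were higher, where 17.2% and 8.51% of all tested genes were. With scaling by library size alone the balance turned to 16 higher and 11 lower. The calls over all tested genes turned in the same direction under that scaling, as given above. With the libraries without packets alone the list had 8 higher and 9 lower, and the numbers of all tested genes are not given here. Of 6 receptor-modifying enzymes 2 were lower and 1 was higher. The lower ones add sugars to Notch receptors and so tune their response to each ligand, with Mfng at -3.09 ± 0.32 (adjusted p = 1.62e-08) and Lfng at -1.90 ± 0.21 (adjusted p = 5.89e-08). Mfng had a lowest, median and highest normalized count of 9.43, 36.3 and 129 in PyMT and of 179, 353 and 603 in FVB, with no overlap. Lfng had 49.9, 127 and 185 in PyMT and 169, 446 and 570.1 in FVB. Both were DEGs at each of the 4 weeks, as was Numbl, a relative of the Notch inhibitor Numb.

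Numbl was -2.67 ± 0.31 (adjusted p = 1.12e-07), with 2.09, 40.0 and 85.3 in PyMT and 160.4, 252 and 455 in FVB and no overlap. Numb itself was 0.04 ± 0.13 (adjusted p = 0.81). The Deltex ubiquitin ligases, which act on receptor trafficking, were lower in 3 of 4 tested members, with Dtx4 at -1.60, Dtx2 at -1.32 and Dtx3, below 2-fold, at -0.53. The ligases Neurl1a (-2.60 ± 0.92, adjusted p = 0.021) and Neurl1b (-1.53 ± 0.31, adjusted p = 0.00022), of the Neuralized family that acts on ligands, were lower too. Neurl1a ranged from 0 to 626 in FVB, and its call was lost in 5 of 34 alternatives, among them those without FVB replicate 1 of week 12 (-2.21) or FVB replicate 3 of week 10 (-1.94). Psen2, one of the catalytic subunits of gamma-secretase, was -1.35 ± 0.20 (adjusted p = 6.41e-06).

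The targets Heyl (-1.65 ± 0.35, adjusted p = 0.00038) and Nrarp (-1.57 ± 0.38, adjusted p = 0.0012), were lower. Of the other targets tested, Hes6 stood at 0.61 ± 0.27 (adjusted p = 0.058) and Hey2 at -1.16 ± 0.69 (adjusted p = 0.17), and both were looked up after their values were seen. Heyl had 1.04, 46.2 and 79.2 in PyMT and 78.2, 143 and 196 in FVB, and Nrarp had 1.04, 59.6 and 112 in PyMT and 54.8, 158 and 264 in FVB. Rbpj, the DNA-binding partner of all 4 receptors, was -0.76 ± 0.12 (adjusted p = 1.87e-05), and with the libraries without packets alone it was -0.47 (edgeR adjusted p = 0.070). The coactivator Maml1 was -0.41 ± 0.17 (adjusted p = 0.039), a call that was lost in 19 of 34 alternatives, among them 14 that each left out 1 library. The 4 higher genes that follow were picked after their values had been seen. They are Mib1, a ubiquitin ligase that acts on ligands (0.63, adjusted p = 6.73e-08, no overlap between genotypes), Fbxw7, which marks the Notch intracellular domain for turnover (0.78, adjusted p = 3.40e-05), the corepressor Ctbp2 (0.74, adjusted p = 0.00028) and the protease Adam17 (0.47, adjusted p = 1.79e-05).

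**Figure D4:**
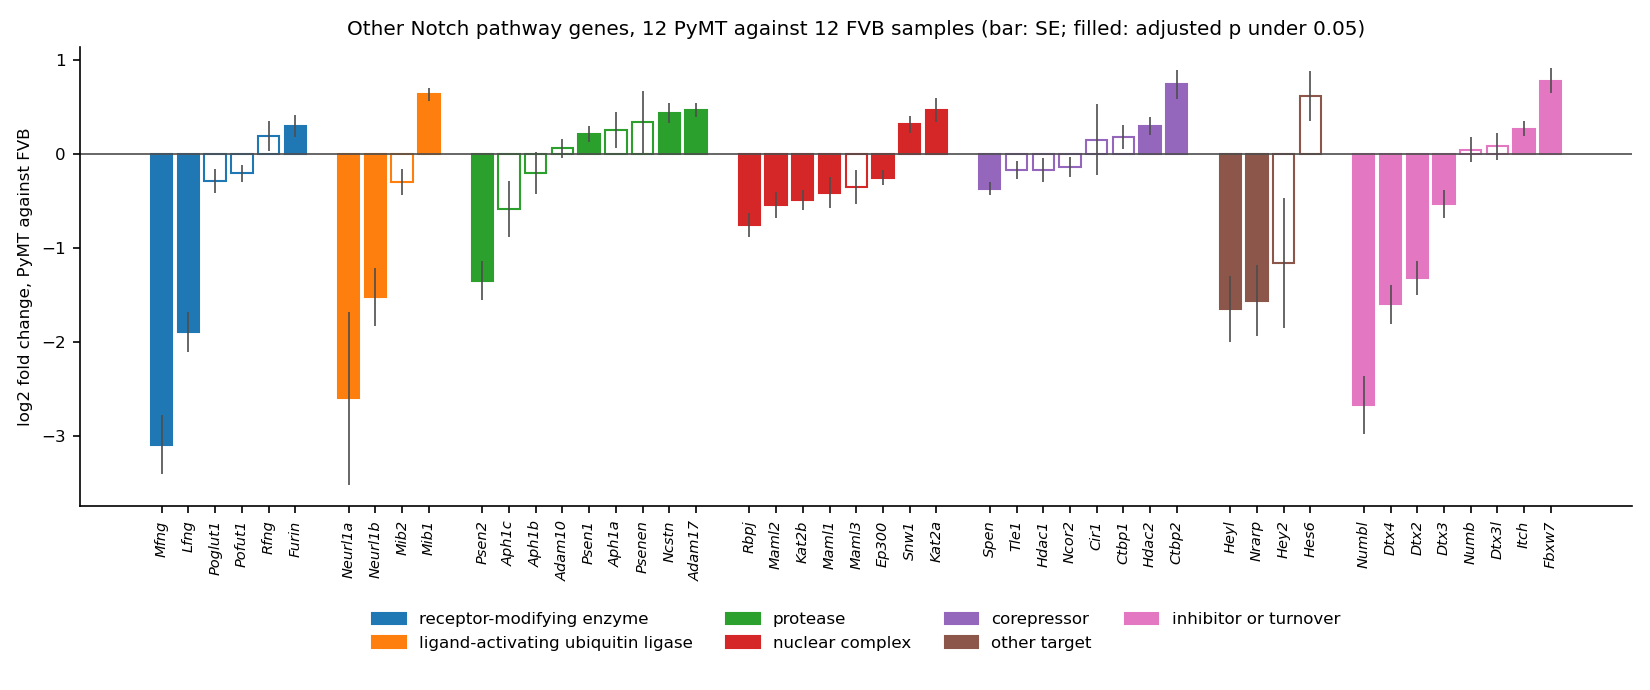
Log2 fold change over the 4 weeks (y axis, bars are SE) of the 47 tested genes of the rest of the pathway (x axis), grouped and colored by role, filled where the adjusted p was under 0.05. The 10 filled bars beyond 1 on this scale (2-fold) all point down, and 11 smaller filled bars point up.

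Markers of other cell types moved between the genotypes as well. All 12 endothelial markers were lower in tumors (median log2 fold change -2.48), and their summed level was 1204 to 3422 normalized counts in PyMT and 9386 to 16476 in FVB. All 8 mural markers were lower (median -2.28, sums 1607 to 3160 and 7466 to 22788), as were all 8 fibroblast markers (median -2.14, sums 15839 to 35155 and 44434 to 147467) and all 8 adipocyte markers (median -3.94, sums 1796 to 20143 and 58247 to 154720). Of 8 myoepithelial markers 5 were lower and 0 were higher (median -2.27, sums 1295 to 5968 and 4538 to 16192). Of 8 luminal epithelial markers 7 were higher and 1 was lower (median 1.78, sums 21161 to 40310 and 4341 to 19108). None of these markers was at 0 in all samples. The part of these cell types in the lower Notch3, Notch4, Jag1, Jag2, Dll4, Mfng and Heyl levels and in the higher Notch1 and Hey1 levels was not tested.

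Of the other lists, 8 of 8 skeletal muscle markers were lower (median -4.67), and 1 of 8 macrophage markers was higher and 2 were lower (median 0.08, with PyMT sums of 3068 to 4873 and FVB sums of 2960 to 6004). Among 4 tested lymphatic markers 3 were lower and 1 was higher (median -1.27), and Ccl21a was at 0 in all samples. Of 6 nerve markers 4 were lower and 2 were higher (median -0.84). Only 2 of 8 lymphocyte markers could be tested, and neither passed (0 of 2 in edgeR's test).

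After the mean of each group of 3 was taken out, the members could be compared with the markers within groups. Jag2 followed the mean of the endothelial markers in the 12 PyMT samples (Pearson r = 0.88, Spearman rho = 0.90) and less closely in the 12 FVB samples (r = 0.42, rho = 0.41). Notch1 followed them in both (r = 0.72 and rho = 0.76 in PyMT, r = 0.81 and rho = 0.80 in FVB). For Notch3 the values were r = 0.66 and rho = 0.39 in PyMT and r = 0.83 and rho = 0.76 in FVB. For Jag1 and Dll4, the PyMT samples gave r of 0.097 and 0.10 with the endothelial markers, and the FVB samples gave 0.48 and 0.37. Hes1 went with the myoepithelial markers (r = 0.62 and rho = 0.50 in PyMT, r = 0.79 and rho = 0.69 in FVB), while Hey1 went against them (r = -0.77 and rho = -0.67, r = -0.48 and rho = -0.48). These correlations describe 12 samples each, which share library depth and tissue make-up, and they were not tested. Only chosen pairs are given, and values for the other members and the other marker lists, such as Notch3 with the mural markers, are left out. The values therefore do not show which list a member followed most closely.

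Members also moved with each other within groups. Notch1 and Notch3 were the closest pair (r = 0.84 in PyMT and 0.93 in FVB, rho = 0.82 and 0.92), although their levels differed between genotypes in opposite directions. Leaving out the 2 samples whose Notch1 level was most distant from its median gave r of 0.62 and 0.87. Hes1 and Hey1 moved against each other (r = -0.84 in PyMT and -0.76 in FVB, rho = -0.80 and -0.89), and r was -0.74 and -0.79 without the 2 farthest samples. For each member the genes with the most alike pattern over 24 samples, group means removed, were listed. Notch3 ranked first for Notch1 (r = 0.90), Prkcdbp for Notch4 (0.95), Ggt5 for Notch2 (0.88), Fjx1 for Jag2 (0.91), Sf1 for Jag1 (0.80), Casp9 for Dll1 (0.77), Ifi203 for Dll4 (0.82), Haus6 for Hes1 (0.90) and Lamtor2 for Hey1 (0.86). Myc was listed at rank 3 for Hes1 (0.88), and the casein gene Csn3 at rank 3 for Hey1 (0.83), and these were picked from the lists. All these values are the highest found in a search over all tested genes, which yields high values by itself. They were not tested and do not show a shared regulation.

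**Figure D5:**
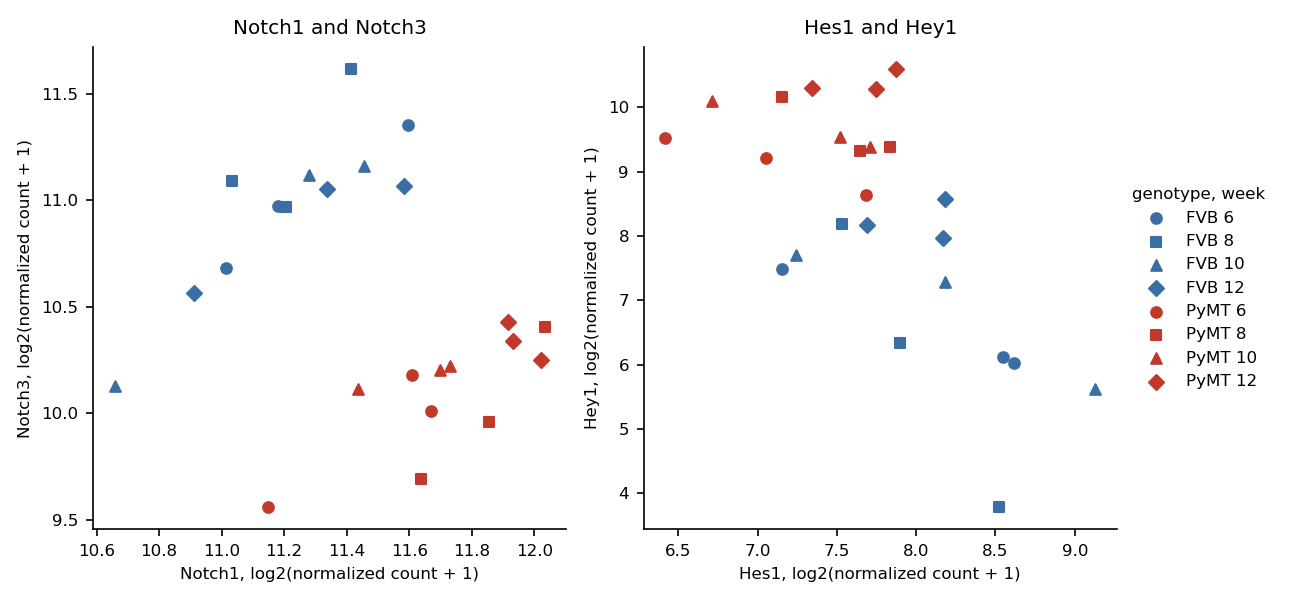
Log2(normalized count + 1) of Notch3 against Notch1 (left) and of Hey1 against Hes1 (right) in the 24 samples, colored by genotype and with 1 marker shape per week. Within each genotype Notch3 rises with Notch1 (r = 0.84 and 0.93 with group means removed), and Hey1 falls with Hes1 (r = -0.84 and -0.76).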

How the data were processed

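RNA-seq was made from mammary tumors of PyMT mice and glands of FVB mice, 3 per genotype and week, and each replicate was a separate mouse. From total RNA the authors depleted ribosomal RNA, made directional libraries, trimmed adapters, aligned reads to mm9 with GSNAP and counted them with HTSeq, and the deposited values are raw counts per Ensembl gene. The strand setting and the annotation used for counting are not given in the sources used here, and gene models were taken from GENCODE M1 on mm9. Tested were the 14918 of 37991 genes that reached a CPM of 1 in 12 or more of the 24 samples. edgeR 4.0.16 (R 4.3.3) was run with TMM scaling, quasi-likelihood tests and Benjamini-Hochberg adjustment, within weeks, over the 4 weeks with week as a factor, and over all 24 samples in 8 groups for changes with time. An adjusted p under 0.05 counted as called. DESeq2 1.42.0 gave size factors and, like limma 3.58.1 with sample quality weights, an alternative test. Other alternatives changed scaling, filters and samples. Scripts were tested on simulated data. Python 3.11.15, NumPy 2.4.6, SciPy 1.17.1, pandas 2.3.3 and matplotlib 3.10.9 gave levels, correlations on log2(normalized count + 1) and plots. Total counts of 6969375 to 13516601 limit the precision of low genes, more so in libraries with packets.

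The members and the lists were chosen with earlier results of these data known. The rule for naming covered the 10 members, Rbpj, Maml1 and Numb, the 10 other pathway genes with the largest change among those called, and the 3 genes most alike to each member. Of these 3 the text gives the first-ranked gene, and beyond it only Myc and Csn3, which were picked from the lists. Dtx3, Hes6, Hey2, Mib1, Fbxw7, Ctbp2 and Adam17 were named outside this rule.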

Additional observations from a re-analysis of the deposited data

Results flagged for a closer look

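The difference in Dll1 between PyMT and FVB pointed in opposite directions at weeks 8 and 12. All 3 PyMT samples lay below all 3 FVB samples at week 8 (79.7 to 172 against 238 to 372 normalized counts), and all 3 lay above them at week 12 (396 to 675 against 133 to 391). Of the 14918 tested genes, 5990 lay apart in either direction at week 8 and 6960 at week 12. The log2 difference of Dll1 at week 12 was larger than that at week 8 by 2.525 ± 0.78 (SE). The test of this change in the fit of all 24 samples gave an unadjusted p of 0.0041, and after adjustment over 14918 genes it did not pass (edgeR adjusted p = 0.9997). Over 32 alternatives the change lay between 2.24 and 3.05, with adjusted p-values from 0.24 to 1.0.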

How the results depend on the processing

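Over the 4 weeks, Hey1, Jag1, Jag2, Dll4, Notch1, Notch3 and Notch4 kept their direction and call in 34 of 34 alternatives, and within weeks Jag1 did so at all 4 weeks. The 2 libraries with the most genes at 0 changed no member's call over the 4 weeks when left out. The number of members that were DEGs at week 8 moved from 2 to 4 in the fit of all 24 samples, 1 with library size only, 5 without a filter, 7 with DESeq2, 6 with limma and 5 with counts divided by packet size, and that at week 12 from 6 to 3 in the fit of all 24 samples. Over all genes the DEGs of week 8 numbered 1484, and 2489 with DESeq2, 2366 with limma and 2615 with counts divided by packet size. For the other settings, and for week 12 in the fit of all 24 samples, the numbers of all genes are not given here. Between weeks 12 and 6 in PyMT 1 member passed with DESeq2 and 1 with limma in place of 0, and the numbers of all genes that these tools called are not given here. The other pathway genes moved from 11 higher and 17 lower to 16 higher and 11 lower with library size only, where all tested genes turned likewise. They moved to 8 higher and 9 lower with only the libraries without packets, with no number of all genes given here. That alternative was chosen after the data were seen and compares the genotypes at weeks 8 and 12 only. The Notch1 share with the longest transcript was 52.4% in PyMT and 32.4% in FVB. With group means left in, r turned from 0.68 to -0.59 for Notch1 and the endothelial markers, and moved from 0.77 to 0.90 for Jag2 and from 0.71 to 0.76 for Hes1 and the myoepithelial markers. The sign turned for Notch2 with library size only (0.0745 at week 6, 0.0515 at week 10), and for Dll1 over the 4 weeks with library size only (0.0297), limma (0.0298) and only the libraries without packets (0.71). For Dll1 at week 10 it turned in the fit of all 24 samples (-0.0172), with the replicate block (-0.00865), limma (-0.50) and counts divided by packet size (-0.19). The cause was not tested.

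Leaving out 1 library at a time gave 3 to 4 DEGs among the members at week 6, 1 to 3 at week 8, 4 to 6 at week 10 and 2 to 6 at week 12. The 1 at week 8 was found without PyMT replicate 1 or 2 or FVB replicate 2 or 3. At week 12 there were 3 without FVB replicate 1 or PyMT replicate 2 or 3, and 2 without FVB replicate 3. Over the 4 weeks 2 members were higher and 7 lower throughout, and of the other pathway genes 9 to 12 were higher and 16 to 19 lower. Tests of time stayed at 0. Numbers of all tested genes in these fits are not given here, so these counts show nothing particular to the members. The sign turned for Dll1 at week 10 (-0.39, -0.33 and -0.07, range -0.39 to 0.39), for Dll1 between weeks 12 and 6 in FVB (0.21, 0.04 and 0.03, range -0.60 to 0.21) and for Numb (-0.0328, range -0.0328 to 0.101).

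PyMT and FVB samples of a week share replicate numbers, and the correlations of the deviations of same-numbered samples from their group means ran from -0.03 to 0.18, so that the numbers were not taken as pairs. The highest were those of replicate 3 at weeks 6, 8 and 10 (0.145, 0.177 and 0.164). Libraries with packets were more frequent in replicate 2 than in replicate 3, so that library quality varied with replicate number. With the replicate block 4, 3, 4 and 5 members were DEGs at weeks 6, 8, 10 and 12, and 2 were higher and 7 lower over the 4 weeks, with 11 and 18 of the other pathway genes. The numbers of all tested genes with the replicate block are not given here. Depth limits Notch4, Jag2, Dll1, Dll4, Hes1 and Hey1, each of which came from fewer than 5 packets in 1 or more libraries.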
